A study of Mus musculus with 10 samples.

Results

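The genes of the sperm tail described here were followed in testes that lack MOV10, an RNA helicase, and in wild-type testes. They were chosen by name: Akap3, Akap4, Fscb, Cabyr and Ropn1, whose products belong to or bind the fibrous sheath, Odf1, Odf2, Odf3 and Odf4, which carry the name of the outer dense fibres, and Oaz3, the testis form of ornithine decarboxylase antizyme. These are 10 of the 55421 genes in the count files, and all 10 were among the 20240 genes tested. The RNA-seq data came from 3 Mov10-/- and 3 wild-type (Mov10+/+) mice at postnatal day 21, with 1 library for each pair of testes. The mutant mice were on a mixed 129, C57BL/6 and FVB background, and that of the wild-type mice is not given in the sources used here. The knockout allele lacks floxed Mov10 exons that were removed in the whole animal through Actb-Cre, so germ cells and somatic cells alike carry it. A further 4 libraries held RNA crosslinked to and immunoprecipitated with MOV10 (MOV10 CLIP-seq) from wild-type testes of the same age.

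The sperm tail is built around a microtubule axoneme. In the middle piece and the principal piece the axoneme is flanked by the outer dense fibres, stiff cytoskeletal rods, and in the principal piece these are wrapped by the fibrous sheath, which also holds enzymes of glycolysis and anchors protein kinase A. The parts of these structures are made mostly in haploid germ cells, after meiosis, when round spermatids elongate. In the first wave of spermatogenesis a testis of this age holds round spermatids as its most advanced abundant germ cells, so most of the tail genes are only beginning to be used.

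Reads on genes numbered 5083407 to 9230540 per RNA-seq library, so that 1 read stood for 0.108 to 0.197 reads per 1000000 (RPM). The library with the fewest was Mov10-/- replicate 3, where 57.2% of reads were not aligned. Mov10 itself stood at 110 ± 12.2 counts per 1000000 (CPM, SD, n = 3) in wild type and 27.5 ± 1.37 in Mov10-/-, a log2 fold change of -1.999 (SE 0.12, edgeR quasi-likelihood adjusted p = 0.005519). The labels name no culture, litter or batch, so p-values measure the spread between these mice only. In whole testis, fewer cells of a type and less RNA per cell cannot be told apart.

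Akap4 and its neighbour in the sheath, Akap3, share a stretch of promoter sequence. The RefSeq promoter set (GRCm38.p6, 250 bases before to 50 after each start) held 11 start sites for 7 of the 10 genes, and none for Odf1, Cabyr and Oaz3. The lines below give the bases upstream of 3 starts, 5′ to 3′ on the strand of the gene. Capitals mark the run of 20 bases that Akap3 and Akap4 have in common, and in Fscb the 8 bases TGATGTCA with which that run ends.
Akap3, chr6:126853044-126853097, plus strand: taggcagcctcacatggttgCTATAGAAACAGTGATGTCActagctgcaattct
Akap4, chrX:7067448-7067507, plus strand: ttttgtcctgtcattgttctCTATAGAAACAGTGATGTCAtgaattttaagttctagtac
Fscb, chr12:64474922-64474981, minus strand: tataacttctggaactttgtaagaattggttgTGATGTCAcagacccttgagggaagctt

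The run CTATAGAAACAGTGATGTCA was found in the promoters of only these 2 genes among 32851 promoter entries, searched on both strands. TGATGTCA was picked after the sequences had been seen. It lay at -22 in Akap3, with another copy starting at -1, at -35 in Akap4 and at -51 in Fscb, counted from the start site to the first base of the match. Of all promoter entries, 3.62% held it. The palindrome TGACGTCA, the full cyclic AMP response element, was in none of the entries of these genes and in 1.79% of all entries. TGACG, which is contained in that palindrome, was found only at starts of Odf2 and in 20.8% of all entries, and TATAAA was in none of the entries of these genes and in 13.6% of all. Odf2 stood apart in base composition. Its 4 start sites had 68.0% to 74.3% G and C, against 52.7% for the median of all entries. The other genes ranged from 35.0% in Fscb to 55.3% in Odf3. A match describes letters and no binding was measured at these sites.

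All 5 of the genes chosen for the fibrous sheath had lower values in each Mov10-/- library than in any wild-type library, a pattern that 14.0% of all genes tested showed. Akap4 (ENSMUSG00000050089, chrX:7067519-7078609 in mm10), the main anchoring protein for protein kinase A in the sheath, had 81.5, 189.8 and 46.8 CPM in wild-type replicates 1, 2 and 3. It had 9.52, 33.0 and 16.1 CPM in Mov10-/- replicates 2, 3 and 4. Wild-type replicate 2 was the highest library and Mov10-/- replicate 2 the lowest, and the 2 groups did not overlap. The log2 fold change of Akap4 was -2.48 (SE 0.60, 95% confidence interval -3.87 to -1.10), a mean of 19.5 ± 12.1 against 106 ± 74.6 CPM (SD, n = 3). Akap3 (ENSMUSG00000030344, chr6:126853098-126874308), the anchoring protein made before AKAP4 in sheath assembly, had 121.7, 220.9 and 83.6 CPM in wild type. Its Mov10-/- values were 23.2, 59.2 and 40.6 CPM. The order of the 6 libraries was the same as for Akap4, and the log2 fold change was -1.81 (SE 0.42, interval -2.79 to -0.83).

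Fscb (ENSMUSG00000043060, chr12:64471330-64474690, minus strand), a calcium-binding protein of the sheath, showed the lowest fold change and the widest spread within wild type. Its wild-type values were 59.1, 127.3 and 14.4 CPM, so that the highest of them was 8.81 times the lowest. The Mov10-/- values were 5.31, 8.81 and 7.999 CPM. Wild-type replicate 3 was thus nearer to the Mov10-/- libraries than to the other wild-type libraries. The log2 fold change of Fscb was -3.20 (SE 0.71, interval -4.85 to -1.55), and it was -2.32 without wild-type replicate 2 and -3.69 without wild-type replicate 3.

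Cabyr (ENSMUSG00000024430, chr18:12740322-12755260), a calcium-binding protein that becomes tyrosine phosphorylated during capacitation, had 57.7, 118.6 and 38.8 CPM in wild type. In Mov10-/- it had 11.1, 28.3 and 16.1 CPM. The groups did not overlap, and the log2 fold change of Cabyr was -1.98 (SE 0.47, interval -3.08 to -0.88). Ropn1 (ENSMUSG00000022832, chr16:34649921-34678618), ropporin, which binds AKAP3 through the docking fold it shares with protein kinase A, had 30.4, 62.4 and 18.3 CPM in wild type. Its Mov10-/- values were 3.58, 11.9 and 4.80 CPM, again below all wild-type values. The log2 fold change of Ropn1 was -2.50 (SE 0.58, interval -3.84 to -1.15).

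**Figure D1:**
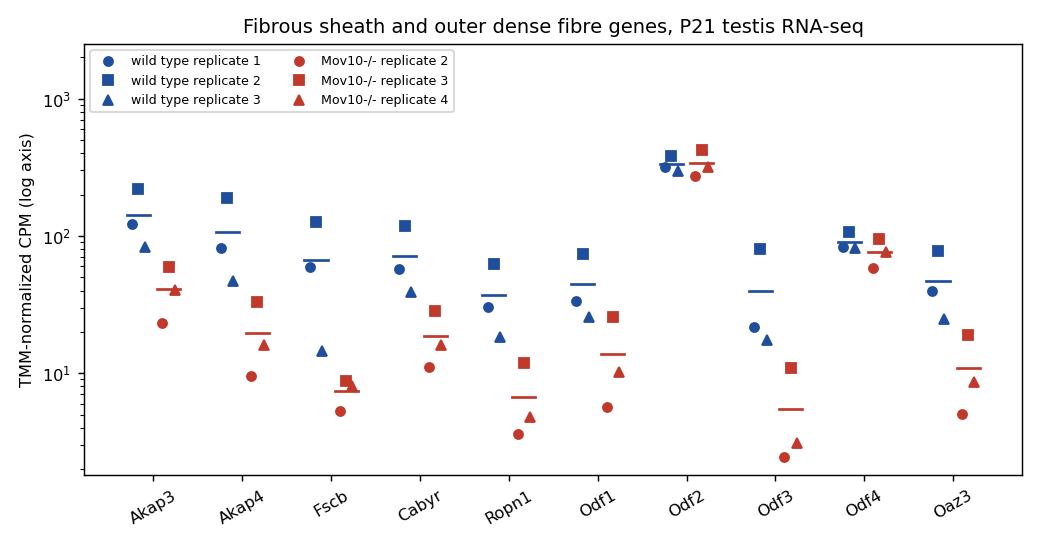
TMM-normalized CPM on a log axis of the 10 genes (x axis) in each library. Wild type is blue and Mov10-/- red, symbols mark replicates and lines mark group means. For 7 genes every red point lies below every blue point, in Odf1 the groups meet at 25.6 against 25.5 CPM, and in Odf2 and Odf4 they overlap.

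The genes named for the outer dense fibres did not move as one group. Odf1 (ENSMUSG00000061923, chr15:38219203-38226735), a main protein of the fibres, had 33.5, 74.4 and 25.5 CPM in wild type and 5.69, 25.6 and 10.2 CPM in Mov10-/-. The groups met, since Mov10-/- replicate 3 was level with wild-type replicate 3. The log2 fold change of Odf1 was -1.72 (SE 0.59, interval -3.10 to -0.34), with -2.49 when Mov10-/- replicate 3 was left out and -1.13 when wild-type replicate 2 was left out. Odf3 (ENSMUSG00000025482, chr7:140847805-140851018), which despite its name is known as a protein inside axonemal microtubules, had 21.7, 80.4 and 17.3 CPM in wild type. In Mov10-/- it had 2.47, 10.9 and 3.08 CPM, without overlap. Its log2 fold change was -2.93 (SE 0.77, interval -4.72 to -1.13). This value was the one most open to single libraries among the 10 genes, at -1.90 without wild-type replicate 2 and -3.84 without Mov10-/- replicate 3.

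Odf2 (ENSMUSG00000026790, chr2:29889221-29931746), a fibre protein that somatic cells also make as a component of centriole appendages, had 317.9, 382.6 and 295.6 CPM in wild type. Its Mov10-/- values were 273.4, 425.7 and 315.6 CPM, on both sides of the wild-type values. The log2 fold change of Odf2 was 0.02 (SE 0.18), and its interval of -0.39 to 0.43 leaves room for a modest change in either direction. Odf4 (ENSMUSG00000032921, chr11:68921835-68927081, minus strand), a membrane protein of the tail, had 83.3, 106.0 and 81.4 CPM in wild type and 58.2, 95.3 and 76.7 CPM in Mov10-/-. The groups overlapped and the log2 fold change of Odf4 was -0.24 (SE 0.19, interval -0.69 to 0.20). Within wild type the highest library of Odf2 was 1.29 times the lowest and that of Odf4 was 1.30 times, against 2.64 to 8.81 times in the 7 genes without overlap.

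Oaz3 (ENSMUSG00000028141, chr3:94432414-94443915, minus strand) encodes an antizyme that restrains ornithine decarboxylase, the first enzyme of polyamine synthesis, in haploid germ cells. It had 39.4, 77.7 and 24.6 CPM in wild type and 5.07, 19.1 and 8.61 CPM in Mov10-/-. No Mov10-/- library reached the lowest wild-type library, and the log2 fold change of Oaz3 was -2.15 (SE 0.56, interval -3.46 to -0.84). In the annotation its exons share 2255 bases with Tdrkh and 157 bases with Mrpl9, both on the opposite strand. The library kit keeps strand but the strand setting of the counting is not given in the sources used here, so the Oaz3 counts are uncertain to that extent. Tdrkh had 147 ± 10.5 CPM in wild type and 143 ± 9.17 in Mov10-/- (SD, n = 3). Oaz3 lies on the chromosome of Mov10, with 10.35 Mb between them.

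None of the 10 genes passed the test fixed for calls, which asked of the quasi-likelihood fit in edgeR both a fold change above 2 and an adjusted p under 0.05. Among all genes tested that rule called 0.00494% lower, a single gene, which was Mov10 itself. The adjusted p of the 7 genes without overlap was 0.15 to 0.1511, that of Odf1 was 0.206, and those of Odf4 and Odf2 were 0.5488 and 0.9602. Before adjustment 8 of the 10 genes, all but Odf2 and Odf4, were lower at p under 0.05, against 11.9% of all genes tested. This count was 7 without Mov10-/- replicate 4 and also 7 without wild-type replicate 2, and it was 8 without any other library. Every Mov10-/- value lay below every wild-type value in 7 of the 10 genes, against 14.0% of all genes tested. The median log2 fold change was -2.07 over the 10 genes and 0.03 over all genes tested. The 7 genes were 3.51 to 9.17 times lower, which put them between percentiles 1.62 and 5.65 of all fold changes.

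Whether these genes were called turned on the test. DESeq2 called 8 of the 10 lower, all but Odf2 and Odf4, with adjusted p from 0.0007795 for Akap3 to 0.03892 for Odf1, and it called 4.88% of all genes tested lower. The exact test of edgeR called 7, which left out Odf1 (adjusted p = 0.0739), and 5.09% of all genes tested. The likelihood ratio test of edgeR called the same 7 genes and 5.45% of all genes tested. With the replicate number as a block the quasi-likelihood test called 4 of the 10, Akap3, Akap4, Fscb and Cabyr, and 0.731% of all genes tested. Replicate 1 exists only in wild type and replicate 4 only in Mov10-/-. The genotype difference in that fit therefore rested on replicates 2 and 3 alone, unlike in the other tests. With limma voom none of the 10 was called, at adjusted p from 0.2529 upwards.

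**Figure D2:**
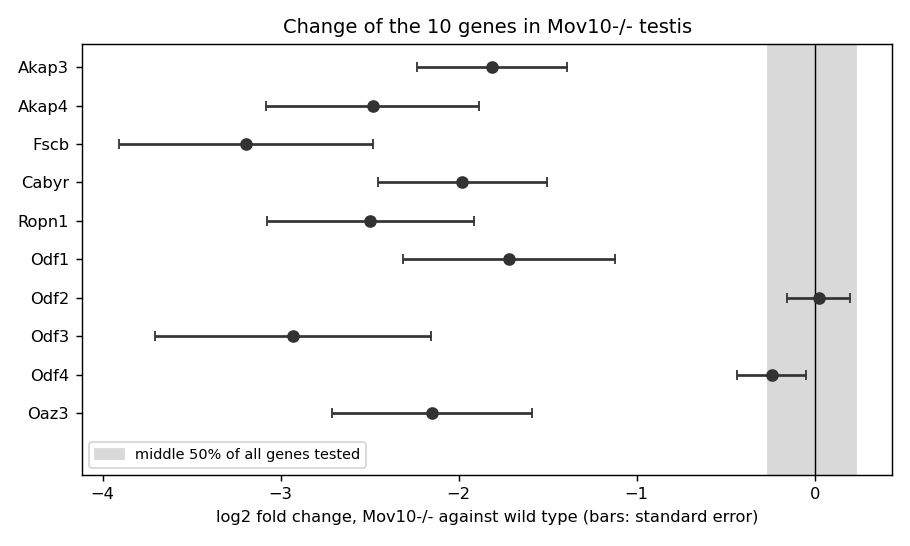
Log2 fold change of each gene in Mov10-/- against wild type (x axis) from edgeR's quasi-likelihood fit, with its standard error as the bar. The grey band holds the middle 50% of all genes tested, from -0.26 to 0.23. Odf2 and Odf4 lie in it and the other 8 genes lie between -3.20 and -1.72.

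Compared per kb of exon, the wild-type levels fell into a shallow order. Odf4 was highest at 77.4 ± 11.7 CPM per kb (SD, n = 3), followed by Akap3 at 45.1 ± 22.5, Odf1 at 40.3 ± 23.8, Akap4 at 35.0 ± 24.6 and Odf2 at 33.5 ± 4.56 CPM per kb. Cabyr at 28.6 ± 16.6, Ropn1 at 27.6 ± 16.96, Fscb at 19.9 ± 16.9, Odf3 at 19.3 ± 17.1 and Oaz3 at 10.9 ± 6.33 CPM per kb came below. Apart from Odf4 and Akap3, neighbours in this order differed by less than the larger of their SDs. In Mov10-/- the levels per kb of Odf4 (65.8 ± 15.9) and Odf2 (34.1 ± 7.93) were the highest, and the next was Akap3 at 13.01 ± 5.71. Exon length here is the union over all annotated transcripts, 9919 bases for Odf2, and the level per kb of a gene with rarely used exons is understated.

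**Figure D3:**
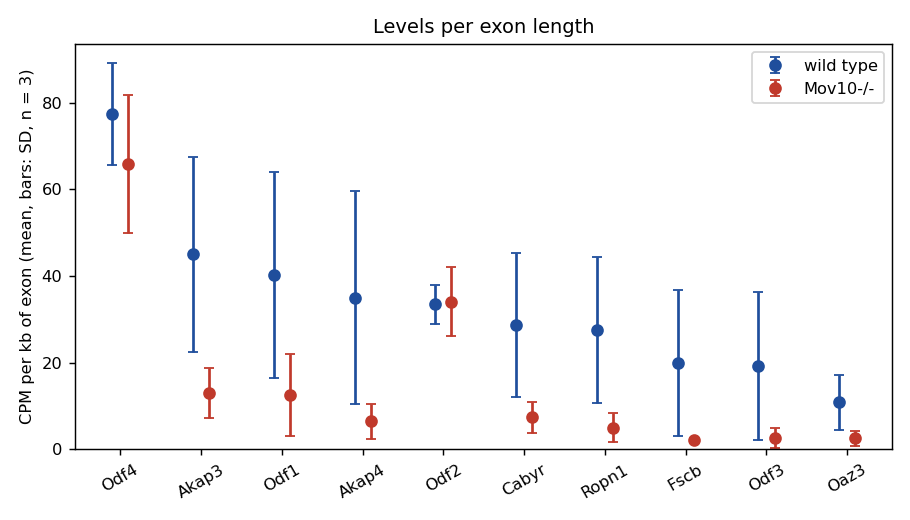
CPM per kb of exon (y axis, linear) for the 10 genes in order of their wild-type level, as mean and SD over 3 libraries, with wild type in blue and Mov10-/- in red. Odf4 and Odf2 have similar means in both groups, while the red mean of every other gene lies below its blue mean.

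Ratios of 2 genes within a library depend on the scaling between libraries only through the 0.5 CPM added to each gene. The log2 ratio of Odf1 to Odf2, from CPM plus 0.5, was -3.23, -2.35 and -3.51 in wild type and -5.47, -4.03 and -4.88 in Mov10-/-. All Mov10-/- ratios were the lower ones, by 1.76 on average, with an exact two-sided permutation p = 0.1, the smallest that 3 against 3 libraries allow. The log2 ratio of Akap4 to Akap3 was -0.54 ± 0.31 in wild type and -1.13 ± 0.26 in Mov10-/- (SD, n = 3; exact two-sided permutation p = 0.1). Akap4 was therefore lower relative to Akap3 in each Mov10-/- library, but wild-type replicate 3 at -0.831 nearly touched Mov10-/- replicate 3 at -0.834.

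The 7 genes without overlap had the 6 libraries in an identical order. From lowest to highest this was Mov10-/- replicate 2, Mov10-/- replicate 4, Mov10-/- replicate 3, wild-type replicate 3, wild-type replicate 1 and wild-type replicate 2. All 10 genes were lowest in Mov10-/- replicate 2 and 9 were highest in wild-type replicate 2, Odf2 being the exception. Without wild-type replicate 2 the log2 fold change was -1.75 for Akap4, -1.89 for Ropn1 and -1.59 for Oaz3, and without Mov10-/- replicate 3 it was -3.05, -3.14 and -2.79. The step from the highest Mov10-/- library to the lowest wild-type library, 1.29 to 1.64 times in these 7 genes, was smaller than the range within wild type. The markers of round spermatids moved with this order. Of 20 such markers, 15 were lower in every Mov10-/- library than in any wild-type library, against 14.0% of all genes tested. At an unadjusted p under 0.05, 17 were lower, against 11.9% of all genes tested, and their median log2 fold change was -2.19. The quasi-likelihood test called none of them and DESeq2 called 13 lower, against 4.88% of all genes tested. Their summed level was 572 to 1453 CPM in wild type and 265 to 533 CPM in Mov10-/-. Of the 4 tested markers of elongating spermatid chromatin, among them Prm2 and Tnp2 of the protamine transition, all 4 were lower at an unadjusted p under 0.05 and 3 overlapped between the genotypes. DESeq2 called 3 of them lower. The shares over all genes tested were again 11.9% for the unadjusted p and 4.88% for DESeq2. The 5 listed markers, 1 of them too low to be tested, summed to 13.4 to 185 CPM in wild type and 1.85 to 13.1 CPM in Mov10-/-. The part of these cells in the lower tail gene levels was not tested.

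Levels relative to the round spermatid markers were then taken in each library, as the difference of log2(CPM + 0.5) from the mean of the markers. The mean of the 10 genes lay above that of the markers by 1.37, 0.93 and 1.18 in wild type and by 1.20, 1.13 and 1.27 in Mov10-/-. The groups overlapped, but this mean includes Odf2 and Odf4, which lay higher in Mov10-/- on this scale. Single genes differed from it. On this scale Akap3, Odf1, Fscb, Cabyr and Oaz3 overlapped between the genotypes. Akap4, Odf3 and Ropn1 stayed below wild type in every Mov10-/- library, with mean differences of -0.53, -0.87 and -0.54, as did 1.39% of all genes tested. The markers themselves ranged in log2 fold change from -5.66 to -0.16. A marker that changed more than the marker mean, such as Catsper3 (-2.90), thus also lies lower in Mov10-/- on this scale. Whether Akap4, Odf3 and Ropn1 differ from genes of round spermatids was not tested. The mean of the markers itself differed by -1.82 (4.92 ± 0.97 in wild type and 3.10 ± 0.74 in Mov10-/-, SD, n = 3), so a gene of equal CPM in both genotypes lies higher in Mov10-/- by that amount on this scale. Odf2 and Odf4 lay higher by 1.83 and 1.57, and 68.2% of all genes tested were above wild type in every Mov10-/- library on this scale.

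Other cell types were represented differently. The 12 spermatocyte markers had a median log2 fold change of 0.08 and summed to 1074 to 1128 CPM in wild type and 1084 to 1210 CPM in Mov10-/-. The 12 spermatogonia markers had a median of 0.24, and 1 was higher at an unadjusted p under 0.05, near the 5.58% of all genes tested. Of the 10 tested Sertoli cell markers, 4 were higher at an unadjusted p under 0.05, against 5.58% of all genes tested, and the 11 listed markers summed to 679 to 839 CPM in wild type and 877 to 1038 CPM in Mov10-/-. Peritubular and endothelial markers had 2 of 7 higher by that measure, against the same 5.58%, and a median of 0.31. The medians of the 7 tested Leydig cell and 6 macrophage markers were 0.25 and 0.32, with none below an unadjusted p of 0.05 in either direction. No marker in these lists was called by the quasi-likelihood test or DESeq2, and none was at 0 in all libraries. Rhox5 of the Sertoli list came near that, with 1 read in Mov10-/- replicate 4 and 0 in every other library. Insl3 of the Leydig list had 1 to 6 reads per library. Both were too low to be tested and were named after their values had been seen.

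**Figure D4:**
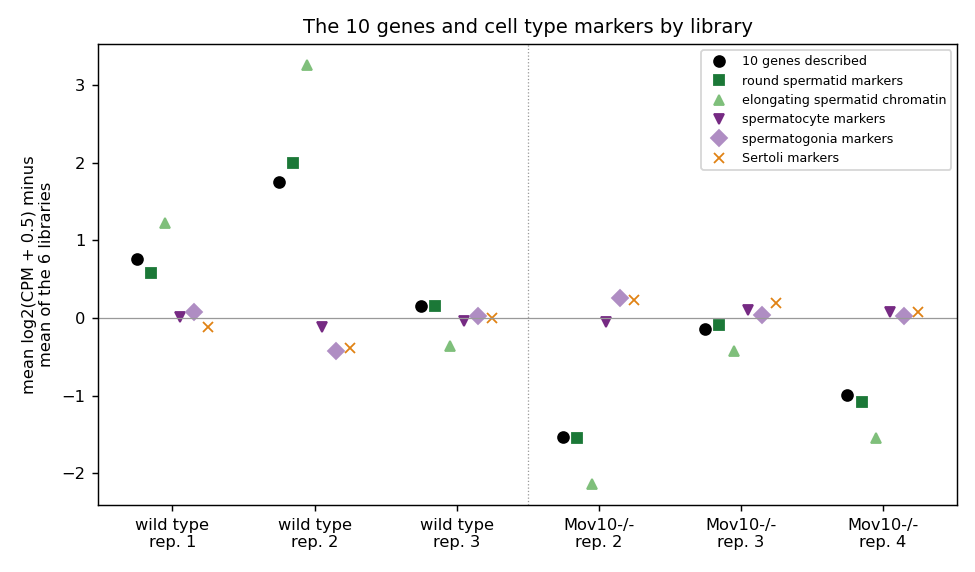
Mean log2(CPM + 0.5) of the 10 genes (black) and of 5 lists of cell type markers in each library (x axis), with the mean of the 6 libraries subtracted. The black points lie close to the dark green squares of the round spermatid markers in all 6 libraries, while spermatocyte, spermatogonia and Sertoli markers stay near 0. The black points average all 10 genes, Odf2 and Odf4 included.

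Further genes of the same structures were read from lists by function. Of 13 other fibrous sheath genes, 8 were lower and none higher at an unadjusted p under 0.05, against 11.9% and 5.58% of all genes tested. In 5 the groups did not overlap, with the Mov10-/- values the lower ones, against 14.0% of all genes tested, and 8 overlapped. Their median on the log2 scale was -0.73. The 3 with the highest wild-type level were Fsip2, an AKAP4-binding scaffold of the sheath, at 400 ± 40.2 CPM in wild type and 241 ± 39.7 in Mov10-/- (log2 fold change -0.73), Ldhc, the germ cell lactate dehydrogenase, at 128 and 137 CPM (0.09), and Nme8, a thioredoxin-domain protein, at 90.8 and 58.7 CPM (-0.64). The lowest fold change of the list belonged to Cabs1, a calcium-binding protein of late spermatids, at -5.67 with 1 to 5 reads per Mov10-/- library. Cabs1, and Odf3l1 and Akap14 below, were named after their values had been seen.

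Of 9 tested genes among the other outer dense fibre genes and their partners, 3 were lower at an unadjusted p under 0.05. The share over all genes tested was 11.9%. The median was -0.31. Odf3l1 had a log2 fold change of -2.17. The most abundant were Spag5, a partner of ODF1 that also acts at the mitotic spindle (210 and 197 CPM), Spata6, needed for the connecting piece of the tail (136 and 115 CPM), and Odf2l (115 and 108 CPM). Among 19 subunits of protein kinase A and other anchoring proteins, 3 were lower by that measure, near the same 11.9%, and the median was 0.01. Akap14, an anchoring protein of the axoneme, had -2.66, while the widely expressed Akap12 (432 and 400 CPM), Akap11 (219 and 232 CPM) and Akap9 (198 and 200 CPM) differed by at most 0.12 on the log2 scale. Among 13 antizyme and polyamine genes none was lower and 1 was higher, against 5.58% of all genes tested for higher, with a median of 0.11. Odc1, ornithine decarboxylase, had 109 CPM in wild type and 119 CPM in Mov10-/-, the antizyme inhibitor Azin1 138 and 133 CPM, and the somatic antizyme Oaz2 72.2 and 77.1 CPM. No gene of these 4 lists was called by the quasi-likelihood test. DESeq2 called 3, 3, 1 and 0 of them lower in the order given, against 4.88% of all genes tested.

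MOV10 CLIP-seq had no read on any of the 10 genes. Reads on genes numbered 3404 to 4934 per library, since over 99% of reads were not aligned, and 0 of 15710 reads in all allow a share of up to 0.0191%. Replicates 1, 2 and 3 differed by less than the sampling noise, with chi-square over degrees of freedom of 0.219 to 0.237 against 1.63 to 1.93 towards replicate 5, and were counted as 1 sample. That leaves 8526 reads and a limit of 0.0352%. Such limits cover counting error only. In wild-type RNA-seq the 10 genes together held 0.0654% to 0.140% of reads on genes, and Odf2 alone held a mean of 0.0331%. Of all genes tested, 82.0% had no CLIP-seq read. The mean wild-type RNA-seq share of each single gene was under the limit of 0.0352%. Odf2 was above it in wild-type replicate 2, with 2822 of 7600909 reads on genes. At the mean shares, binding of MOV10 in mere proportion to RNA level was thus not detectable for a single one of these RNAs. The share of the 10 genes together was above that limit, so as a set their CLIP-seq share was lower than their RNA-seq share by more than counting error. Most genes tested also had no CLIP-seq read, and the RNA-seq share of those genes is not given here. Whether MOV10 binds the RNAs of the 10 genes less than other RNAs was not tested. Binding far above the RNA level was not tested for single genes.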

How the data were processed

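Counts of reads per gene were deposited for each library. Per the labels and methods, the authors made poly(A) libraries with a stranded kit, aligned reads to mm10 with STAR and counted them per gene with HTSeq on Ensembl 99. Versions and the strand setting are not given in the sources used here. Rows for unassigned reads were left out of library sizes and given as shares of reads not aligned. Of 55421 gene IDs, 55240 matched the GENCODE M21 annotation (Ensembl 96), which gave exon lengths and overlaps.

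Genes with over 1 read per 1000000 reads (RPM) in at least 3 of 6 libraries were tested with edgeR 4.0.16 (R 4.3.3, TMM scaling, quasi-likelihood test, Benjamini-Hochberg adjustment over all 20240 genes). Called means a fold change above 2 and an adjusted p under 0.05. CPM was TMM-normalized, with 0.5 added for logs, and confidence intervals are at 95%. DESeq2 1.42.0, limma 3.58.1 and other settings served as alternatives, and the code was tested on simulated data. Groups came from the labels. Promoters came from RefSeq.

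All 10 genes are named. From each of the 4 lists by function the 3 genes of highest wild-type CPM are named, and marker lists are given by counts. The 10 genes and all lists were chosen with earlier results of these data known.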

Additional observations from a re-analysis of the deposited data

How the results depend on the processing

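With the quasi-likelihood test none of the 10 genes was called under other scalings, other filters on low counts or with any library left out, and none was called with limma voom. DESeq2 called 8, and the exact and likelihood ratio tests of edgeR called 7 each. Of the other genes in the lists by function, DESeq2 called 7 and the exact and likelihood ratio tests 8 each, against 0. The cause was not tested. The genotypes share only the replicate numbers 2 and 3. Deviations of same-numbered libraries from their group means correlated at -0.470 and -0.346, so the numbers were not taken as pairs. With the replicate block, which compares the genotypes within replicates 2 and 3 only, 4 of the 10 genes and 1 other gene were called. Of all genes tested, 0.731% were then called lower. The median log2 fold change of the 10 genes was between -2.64 (without Mov10-/- replicate 3) and -1.50 (without wild-type replicate 2). With single libraries left out, the count of the 10 genes lower at an unadjusted p under 0.05, added after seeing the data, ranged from 7 to 8, the difference in the ratio of Odf1 to Odf2 from -2.15 to -1.42 and that of Akap4 to Akap3 from -0.73 to -0.43. Odf2 changed sign under limma voom (-0.0082) and without Mov10-/- replicate 3 (-0.18), wild-type replicate 1 (-0.03) or wild-type replicate 3 (-0.07), with a range of -0.18 to 0.15 over libraries left out. The other 9 genes kept their direction in every setting run.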
